A study of Mus musculus with 50 samples.

Results

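The glucocorticoid receptor gene Nr3c1, the mineralocorticoid receptor gene Nr3c2, the corticosterone-regenerating enzyme gene Hsd11b1 and 7 genes that glucocorticoids are known to induce (Fkbp5, Tsc22d3, Per1, Sgk1, Zbtb16, Klf9 and Ddit4) were followed in microglia of the mouse hippocampus. These 10 genes were taken by symbol from the 53700 genes counted in each mouse, and all 10 were among the 16696 genes with enough reads to be tested. Male C57BL/6J mice were raised under standard housing (control, CTR) or under early-life stress (ELS), in which the dam and litter had limited bedding and nesting material from postnatal day (P) 2 to P9. Microglia were sorted as CD45int CD11b+ cells either directly at P9 (P9-CTR, n = 12, and P9-ELS, n = 13) or at P200, 3 h after an intraperitoneal injection. The adult mice received PBS (P200-CTR-PBS, n = 7, and P200-ELS-PBS, n = 6) or lipopolysaccharide (LPS, a bacterial cell-wall component) at 1 mg/kg (P200-CTR-LPS, n = 7, and P200-ELS-LPS, n = 5). No allele or transgene is named for any group, and every adult mouse had been injected, so no uninjected adult group enters these comparisons. A Percoll gradient removed myelin from the adult tissue only, and no PBS or LPS injection is described for the P9 mice. Age, injection and preparation therefore cannot be told apart.

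Corticosterone, the main glucocorticoid of mice, crosses the cell membrane and binds the glucocorticoid receptor, which is held in the cytoplasm by the chaperone HSP90 and its partners. The bound receptor moves to the nucleus and either binds DNA at palindromic glucocorticoid response elements, which raises genes such as Fkbp5, Tsc22d3 and Per1, or represses inflammatory transcription factors. Microglia carry far more glucocorticoid than mineralocorticoid receptor, and the hormone is known to restrain their inflammatory response. Stress, handling, the daily rhythm and an immune challenge with LPS all raise circulating corticosterone. Hormone levels were not analysed here.

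The response element is shown because it is the sequence by which the receptor reaches its targets. The core element, the half-site GNACA followed after 3 bases of any kind by its reverse complement TGTNC, was searched on both strands, which for a palindrome gives the same matches, in the 5000 bases before each gene's canonical transcript start (GRCm39, GENCODE vM39). Of 21757 protein-coding genes, 8.108% held at least 1 match, and 2 of the 10 genes did, Per1 and Sgk1. The longer palindrome of AGAACA and TGTTCT with the same spacing, which contains the core, lay in the same window of 11 genes (0.0506%), of which Sgk1 was 1. With the windows of the canonical start and of all transcript starts in the GENCODE basic set, 10.603% of genes held the core. So did 3 of the 10, Fkbp5 being added. A gene with more starts has more windows, and Fkbp5 has 9 starts. These wider windows held 6 matches in Fkbp5, 2 in Per1 and 1 in Sgk1. Shown are the only Fkbp5 match to the longer palindrome and the Per1 and Sgk1 matches before the canonical start. In the sequences that follow, given 5′ to 3′ on the gene's strand, capitals mark the core.
Per1, chr11:68987894-68987923, plus strand, in an intron, 1359 bases before the canonical start: cagccaagaGAACACGATGTTCcctagtgc
Sgk1, chr10:21869592-21869621, plus strand, in an intron of longer transcripts, 958 bases before the canonical start: atgcggaaaGAACAGAATGTTCtcggagat
Fkbp5, chr17:28661385-28661414, minus strand, in an intron, 694 bases before the start of a shorter transcript: ttgtttgaGAACAGCTTGTTCtaggctttc
The Sgk1 and Fkbp5 sequences also match the longer palindrome. No match to these letters was found in the windows of Nr3c1, Nr3c2, Tsc22d3, Zbtb16, Klf9, Ddit4 or Hsd11b1, which leaves enhancers farther away unsearched.

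Levels are given as CPM, the reads of a gene per 1000000 reads of that mouse, with the total scaled for library composition. Total counts per mouse were between 5152838 and 42231258. In 3 mice fewer than 16000 genes were detected, P9-ELS mice P9_19.2 and P9_19.3 and P200-CTR-PBS mouse P200_1.1, and these stood apart for single genes: Per1 had 0 reads in mouse P200_1.1, and Nr3c1 was at 216 CPM in mouse P9_19.2 and 15.4 CPM in mouse P9_19.3 against 34.1 to 80.2 CPM in the other P9-ELS mice. The microglial markers P2ry12, Tmem119, Cx3cr1 and 7 others summed to 39286 to 91084 CPM in all mice, and the 8 markers of monocytes and neutrophils to at most 11.0 CPM. In bulk RNA, fewer cells of a type and less RNA per cell cannot be told apart. Mice are named as in their labels, in which P200_4.1 was read as mouse 1 of nest 4, although the sources used here do not define these numbers. Within an age each nest held mice of 1 early-life condition. Where mice share a nest, the tests treat them as separate, so p-values measure the spread between mice.

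Divided by exon length, the genes spanned a wide range in unchallenged adult control microglia. In P200-CTR-PBS mice Sgk1, a kinase that regulates ion transport and cell survival, had the highest level, 146 ± 15 CPM per kb (SD, n = 7). Tsc22d3, which encodes the anti-inflammatory protein GILZ, followed at 24.7 ± 5.45 CPM per kb, and Nr3c1 at 21.3 ± 3.25 CPM per kb. These 2 neighbours did not differ beyond their spread. Fkbp5, an HSP90 co-chaperone that lowers the receptor's affinity for hormone and closes a short feedback loop, was at 4.77 ± 1.31 CPM per kb, Ddit4 at 3.20 ± 1.61 and Nr3c2 at 2.05 ± 0.59, each within the spread of the next. Per1, a core clock repressor, was at 0.767 ± 0.43 CPM per kb. The transcription factor genes Klf9 (0.040 ± 0.034 CPM per kb) and Zbtb16 (0.019 ± 0.028) were close to absent, and Hsd11b1 had 0 reads in all 7 mice.

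**Figure D1:**
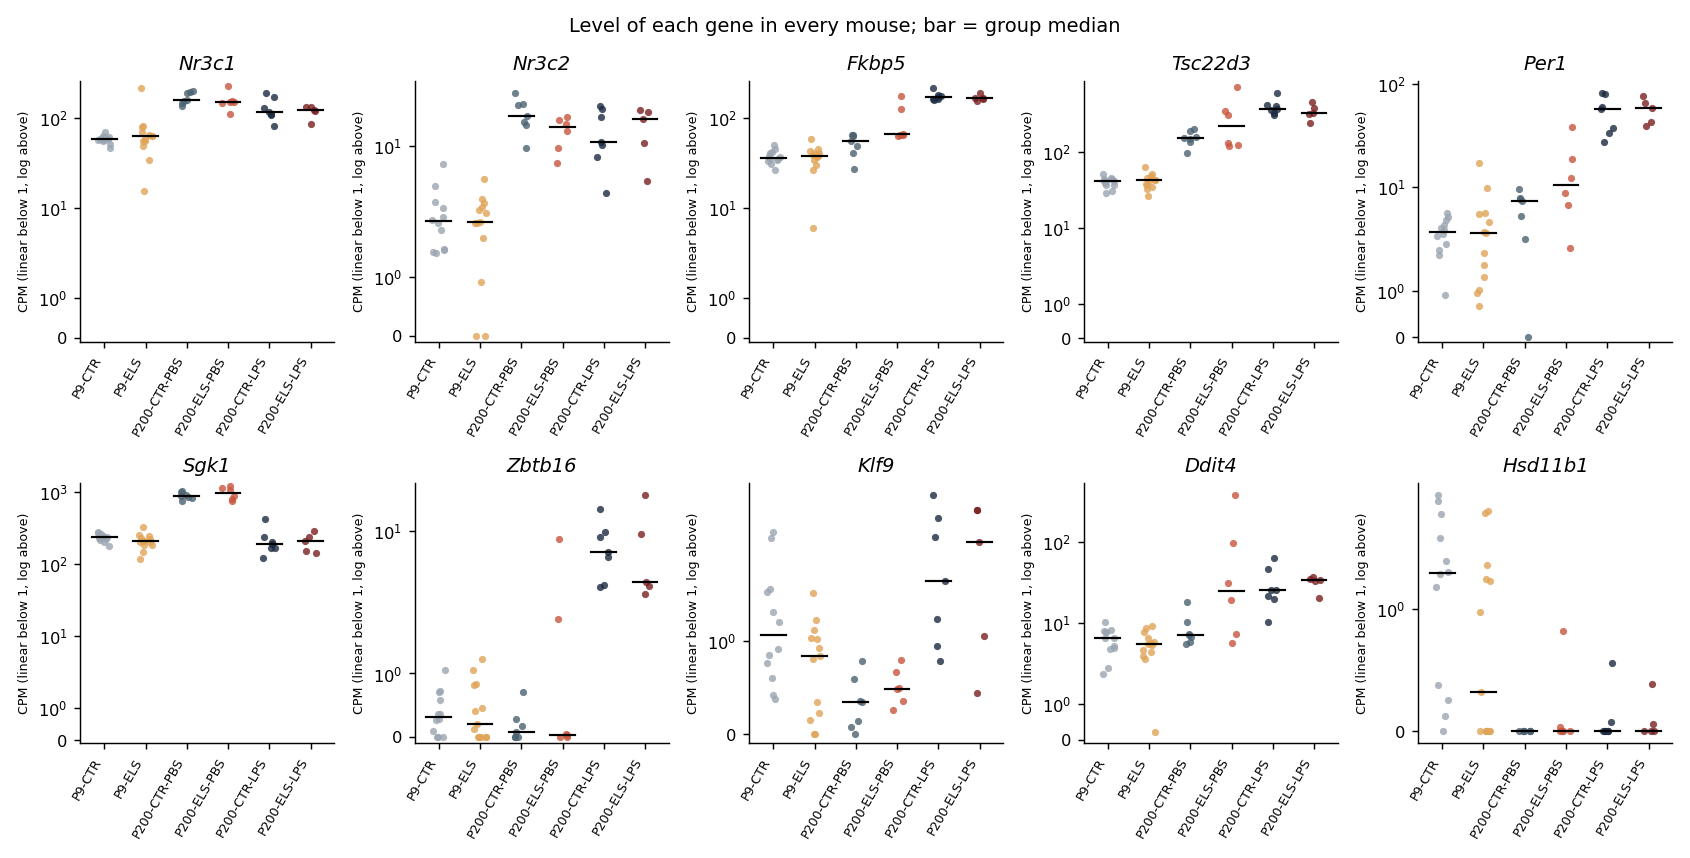
CPM of each of the 10 genes in every mouse (1 point per mouse, axis linear below 1 and logarithmic above) in the 6 groups, with the group median as a bar. Sgk1 was at most at 414 CPM in every LPS mouse while Fkbp5 was at or above 158 CPM in each of them, and in P200-ELS-PBS mice Ddit4 ran from 5.71 to 388 CPM.

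The first comparison asked whether ELS changed these genes at the end of the stress period. At P9, 0 of the 10 genes passed an adjusted p of 0.05 between P9-ELS and P9-CTR (edgeR's quasi-likelihood test, Benjamini-Hochberg adjustment over all 16696 genes, of which 0% passed). Over all genes 914 had an unadjusted p under 0.05, edgeR's likelihood-ratio test called 1 gene and DESeq2 0, and none of the 10 genes was under 0.05 before adjustment. Tsc22d3 lay between 28.8 and 51.8 CPM (median 41.1) in P9-CTR and between 26.0 and 63.6 CPM (median 42.7) in P9-ELS. Fkbp5 had medians of 36.0 and 38.3 CPM, and Ddit4 of 6.54 and 5.51 CPM. The largest fitted difference in size was that of Klf9, -0.90 on the log2 scale (standard error 0.50, unadjusted p = 0.077), the medians being 1.07 CPM for P9-CTR mice and 0.837 CPM for P9-ELS mice. All 10 ranges overlapped between P9-CTR and P9-ELS.

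The adult mice given PBS showed a different picture for 1 target gene. Ddit4 (chr10:59785491-59788492, minus strand) encodes REDD1, an inhibitor of the growth kinase complex mTORC1 that is induced by glucocorticoids and also by hypoxia, low energy and the integrated stress response. It was at 5.56 CPM in the lowest P200-CTR-PBS mouse, 7.14 at the median and 18.0 in the highest. In the 6 P200-ELS-PBS mice it was at 5.71 (P200_17.1), 7.23 (P200_17.2), 19 (P200_2.1), 31.3 (P200_20.2), 97.3 (P200_11.1) and 388 CPM (P200_4.1). Mice P200_17.1 and P200_17.2, which share a nest, lay within the control range and the other 4 lay above every control mouse. Ddit4 was the 1 gene of the 10 that passed the test, at a log2 fold change of 3.39 with a standard error of 0.58 (adjusted p = 0.0069), against 0.168% of all genes. The call rested on mouse P200_4.1: without it the log2 fold change was 1.88 (adjusted p = 0.10), and it was also lost when only these groups were fitted (3.39, adjusted p = 0.23) and with limma voom and the nest as a random effect (2.02, adjusted p = 0.27).

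Tsc22d3 (chrX:139440091-139501408, minus strand) had the same order of mice. Its values were 118 (P200_17.1), 121 (P200_17.2), 130 (P200_2.1), 301 (P200_20.2), 339 (P200_11.1) and 716 CPM (P200_4.1) in P200-ELS-PBS, against 97.5 to 200 CPM (median 153) in P200-CTR-PBS. The first 3 mice were within the control range and the last 3 above it. The difference of 0.91 on the log2 scale (standard error 0.25) did not pass after adjustment (adjusted p = 0.097). It passed with edgeR's likelihood-ratio test (adjusted p = 0.033), with DESeq2 (adjusted p = 0.046) and without mouse P200_17.2 (1.07, adjusted p = 0.036). Without mouse P200_4.1 it was 0.39 (adjusted p = 0.67), and with limma voom and the nest as a random effect 0.61 (adjusted p = 0.38).

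Per1 (chr11:68986035-69002300, plus strand) repeated this order, at 2.61 (P200_17.1), 6.71 (P200_17.2), 8.80 (P200_2.1), 12.2 (P200_20.2), 18.8 (P200_11.1) and 38.5 CPM (P200_4.1). Controls ran from 0 to 9.57 CPM with a median of 7.43. The same 3 mice exceeded all controls for Per1 as for Tsc22d3. Fkbp5 (chr17:28618058-28737521, minus strand) was at 63.1 (P200_17.2), 65.9 (P200_2.1), 66.0 (P200_17.1), 66.9 (P200_20.2), 126 (P200_11.1) and 176 CPM (P200_4.1), against 27.2 to 65.9 CPM (median 56.2) in controls. Here mice P200_11.1 and P200_4.1 stood clear of the rest, while 4 mice lay near the control maximum. The log2 fold changes of Per1 (1.32, adjusted p = 0.39) and Fkbp5 (0.83, adjusted p = 0.13) did not pass the test.

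The remaining targets were less uniform. Zbtb16, which encodes the transcription factor PLZF, had 0 to 0.0479 CPM in 4 of the P200-ELS-PBS mice, 2.39 CPM in mouse P200_20.2 and 8.68 CPM in mouse P200_4.1, against at most 0.715 CPM in controls (log2 fold change 3.33, adjusted p = 0.20). Sgk1 was at 749 (P200_17.1), 790 (P200_17.2), 856 (P200_20.2), 1054 (P200_2.1), 1110 (P200_11.1) and 1182 CPM (P200_4.1), and the control mice ranged from 752 to 1005 CPM (log2 fold change 0.12, adjusted p = 0.92). Klf9 was at most at 0.790 CPM in every PBS mouse. Neither receptor gene passed: Nr3c1 had a median of 150 CPM in P200-ELS-PBS and 157 CPM in P200-CTR-PBS (log2 fold change -0.10, standard error 0.26, adjusted p = 0.97), and Nr3c2 medians of 13.8 and 17.0 CPM (-0.45, standard error 0.50, adjusted p = 0.88). Hsd11b1 had 29 of its 30 reads in P200-ELS-PBS in mouse P200_2.1.

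**Figure D2:**
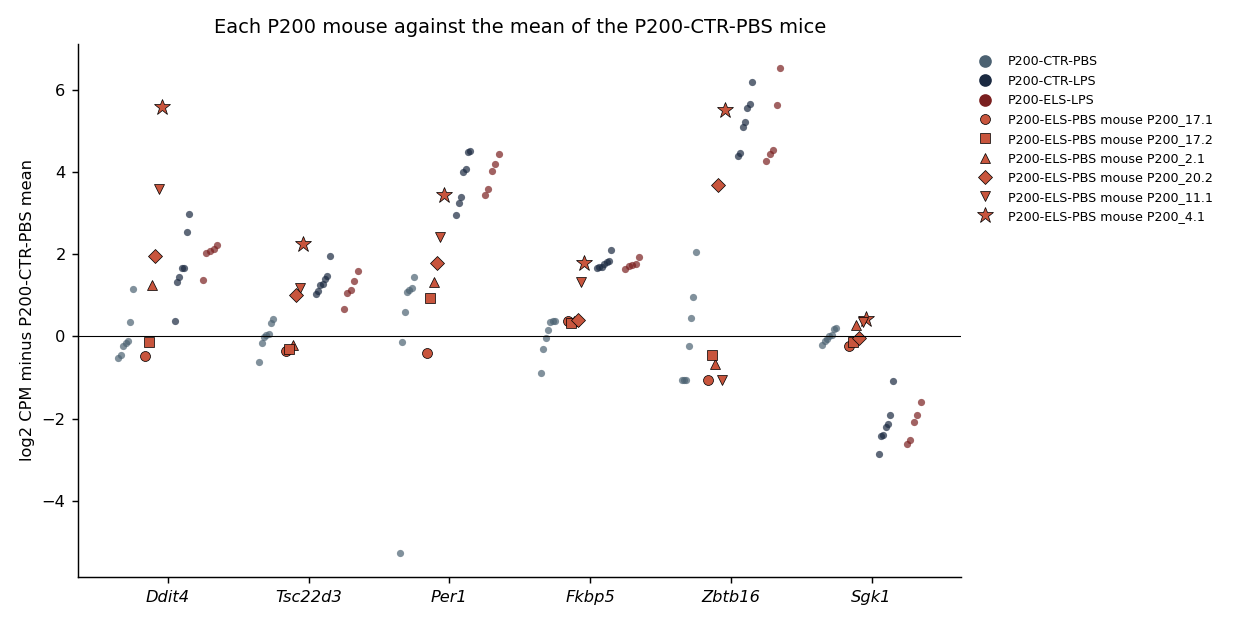
Log2 CPM of 6 target genes in every P200 mouse minus the mean log2 CPM of the P200-CTR-PBS mice (y axis, log2 units), with 1 symbol shape per P200-ELS-PBS mouse. Mouse P200_4.1 (star) and mouse P200_11.1 (downward triangle) lead for Ddit4, Tsc22d3, Per1 and Fkbp5, and mouse P200_4.1 exceeds every LPS mouse for Ddit4 and Tsc22d3.

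Ddit4, Tsc22d3 and Per1 thus ranked the 6 P200-ELS-PBS mice identically. Among the 7 genes with a mean of at least 5 CPM in both PBS groups, 42 pairs were correlated on log2 CPM, 21 in each group. For the pairs of Ddit4, Tsc22d3 and Per1 Spearman's rho was 1 (n = 6, two-sided exact permutation p = 0.0028, the smallest that 6 mice allow, adjusted p = 0.039 over the 42 pairs). Pearson's r was 0.96 for Ddit4 with Tsc22d3, 0.96 for Ddit4 with Per1 and 0.91 for Tsc22d3 with Per1, each with an exact permutation p of 0.0028. Without the 2 mice farthest from the median of the first gene, r over the 4 mice left was 0.81 for Tsc22d3 with Ddit4, 0.99 for Per1 with Ddit4 and 0.68 for Tsc22d3 with Per1. Sgk1 had a rho of 0.94 with each of these 3 genes (exact permutation p = 0.017, adjusted p = 0.12). Nr3c1 had a rho of 0.37 with each of them (exact permutation p = 0.50). The median rho over the 21 pairs was 0.77 in P200-ELS-PBS and 0 in P200-CTR-PBS, where 0 pairs passed after adjustment. The difference between the groups was not tested. How often pairs of other genes reach such values in these mice was not computed. Mice P200_17.1 and P200_17.2 share a nest, so the 6 points come from 5 nests.

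Immediate-early and LPS-responsive genes summed to less in these 6 mice than in any LPS mouse. The summed level of 12 immediate-early genes such as Fos, Jun and Egr1, which rise within minutes of cell stimulation, was 810 CPM in mouse P200_4.1 and 877 CPM in mouse P200_11.1, against 723 to 830 CPM in the other 4 mice, 549 to 844 CPM in controls and at least 6475 CPM in the LPS mice. The 10 cytokine and acute-phase genes of a list that responds to LPS summed to 23.3 CPM in mouse P200_4.1 and 36.6 CPM in mouse P200_11.1, to 33.6 to 47.7 CPM in controls and to at least 582 CPM in the LPS mice. Jun was above every control mouse in all 6 (194 ± 21.4 CPM, n = 6, against 126 ± 40.1 CPM, n = 7, SD), and of 11 tested immediate-early genes 4 were above every control in P200_11.1 and P200_20.2, 3 in P200_4.1, 2 in P200_2.1 and 1 in P200_17.1 and P200_17.2. Of 16 tested clock genes other than Per1, 4 were above every control mouse in P200_17.2 and P200_20.2, 3 in P200_4.1, 2 in P200_17.1 and 1 in P200_2.1 and P200_11.1. Of 9 tested hypoxia genes, 2 were above every control in P200_17.1 and P200_17.2, 0 in P200_20.2 and 1 in each other mouse. Of 10 integrated stress response genes, 2 were above in P200_17.1 and P200_17.2 and 1 in each other mouse. The hypoxia gene Pdk1 was above in each mouse but P200_20.2, and the stress response gene Sesn2 in each but P200_2.1. In each of these 2 lists 0 to 2 genes per mouse were below every control. Of the 10 receptor and target genes, 7 were above every control mouse in mouse P200_4.1, 6 in P200_20.2, 5 in P200_11.1, 5 in P200_2.1, 1 in P200_17.1 and 0 in P200_17.2. Over all 16696 tested genes the share above every control mouse was 16.5%, 16.0%, 15.0%, 16.4%, 11.0% and 13.3% in these mice, in the same order. Of 19 tested genes of a second list of glucocorticoid-induced genes, the same counts were 6, 3, 3, 4, 2 and 2, with the 2 lists sharing no gene. In this second list Cebpd was above every control in each mouse but P200_17.2, and 1 to 3 genes per mouse were below every control. Of the 10 receptor and target genes, 2 were below every control in P200_17.1, 1 in P200_2.1, 1 in P200_20.2 and 0 in each other mouse. Over all tested genes the share below every control ran from 6.59% in P200_17.1 to 11.09% in P200_20.2. Among the 10 genes, Hsd11b1, at 0 reads in all controls, counted as above in P200_4.1 and P200_2.1. Fkbp5 counted in P200_2.1 and P200_17.1 at 65.94 and 65.97 CPM, against a control maximum of 65.86 CPM. Klf9 counted in P200_2.1 at 0.790 against 0.779 CPM. None of those 19 genes passed the test of ELS against CTR after PBS, nor did any of the clock, hypoxia, integrated stress response, immediate-early, chaperone, co-regulator or steroid metabolism genes. Markers of other cells summed in the PBS mice to 4.13 to 12.7 CPM for neurons, 2.84 to 10.6 CPM for macrophages of the brain borders, 75.3 to 182 CPM for oligodendrocytes, 22.3 to 68.5 CPM for endothelium and 303 to 503 CPM for astrocytes. Slc1a3 alone made up 296 to 503 CPM of the astrocyte sum and the other 7 genes at most 16.8 CPM, and Pecam1 alone 21.8 to 66.4 CPM of the endothelial sum. The astrocyte marker Gfap was lower in P200-ELS-PBS (-3.58, standard error 0.82, adjusted p = 0.047), and no other marker passed. The part of these in the Ddit4 result was not tested.

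The change with age differed between conditions for Ddit4. Its interaction of age and condition was 3.60 on the log2 scale (standard error 0.69, adjusted p = 0.032), and 0.0299% of all genes passed that test. No other gene of the 10 passed. The call was lost in 7 of the 38 fits that left out 1 mouse. The interaction fell to 2.08 (adjusted p = 0.30) without P200-ELS-PBS mouse P200_4.1, and stayed between 3.51 and 3.64 (adjusted p = 0.052 to 0.087) without P9-ELS mouse P9_9.2 or without P200-CTR-PBS mouse P200_1.1, P200_5.1, P200_8.1, P200_15.1 or P200_18.2. It was 3.47 (adjusted p = 0.082) without the 3 mice with few detected genes, 3.56 (adjusted p = 0.086) with only these groups fitted and 2.45 (adjusted p = 0.39) with limma voom.

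LPS changed most of the target genes in control adults, in both directions. In P200-CTR mice, Fkbp5, Tsc22d3, Per1, Zbtb16, Klf9 and Ddit4 rose and Sgk1 fell 3 h after LPS, which is 6 of the 10 genes higher and 1 lower, against 8.73% and 6.2% of all genes. Neither receptor gene passed the test. Fkbp5 was at 160 CPM in the lowest P200-CTR-LPS mouse, 172 at the median and 218 in the highest, all above the P200-CTR-PBS maximum of 65.9 CPM, a log2 difference of 1.74 (standard error 0.24, adjusted p = 1.9e-07). Per1 lay between 27.8 and 81.2 CPM (median 56.6) after LPS and at most at 9.57 CPM after PBS (3.19, standard error 0.58, adjusted p = 4.3e-05). Both genes were separated without overlap. Tsc22d3 lay between 307 and 584 CPM (median 359), above the 200 CPM maximum after PBS (1.35, standard error 0.24, adjusted p = 3.3e-05).

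The sparse transcription factor genes rose from near 0. Zbtb16 reached 4.00 to 14.2 CPM (median 7.07) in P200-CTR-LPS mice, against 0 to 0.715 CPM (median 0.0713) after PBS, with 3 PBS mice at 0 reads (log2 fold change 5.39, standard error 1.17, adjusted p = 0.00056). Klf9 reached 0.788 to 4.97 CPM (median 1.93) against 0 to 0.779 CPM (median 0.342) after PBS (2.85, standard error 0.71, adjusted p = 0.0031). These groups did not overlap either, although for Klf9 the lowest LPS mouse and the highest PBS mouse nearly touched. Ddit4 overlapped, at 10.3 to 63.6 CPM (median 25.4) after LPS against 5.56 to 18.0 CPM after PBS (1.81, standard error 0.54, adjusted p = 0.016), and missed the threshold without P200-CTR-LPS mouse P200_8.3 (1.52, adjusted p = 0.055) and with limma voom (1.73, adjusted p = 0.068).

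Sgk1 (chr10:21758083-21875802, plus strand) went the other way. It was at 752 to 1005 CPM (median 876) in P200-CTR-PBS and at 120 to 414 CPM (median 189) in P200-CTR-LPS, with no overlap, and fell by 2.05 on the log2 scale (standard error 0.19, adjusted p = 9.6e-13). In P200-ELS mice it was at 142, 152, 208, 233 and 288 CPM after LPS, below every PBS mouse, and fell by 2.22 (standard error 0.22, adjusted p = 1.3e-11). Sgk1 was the only one of the 10 genes that passed with a lower level after LPS in either condition in the fit to all mice, and it passed in every alternative fit of these comparisons.

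**Figure D3:**
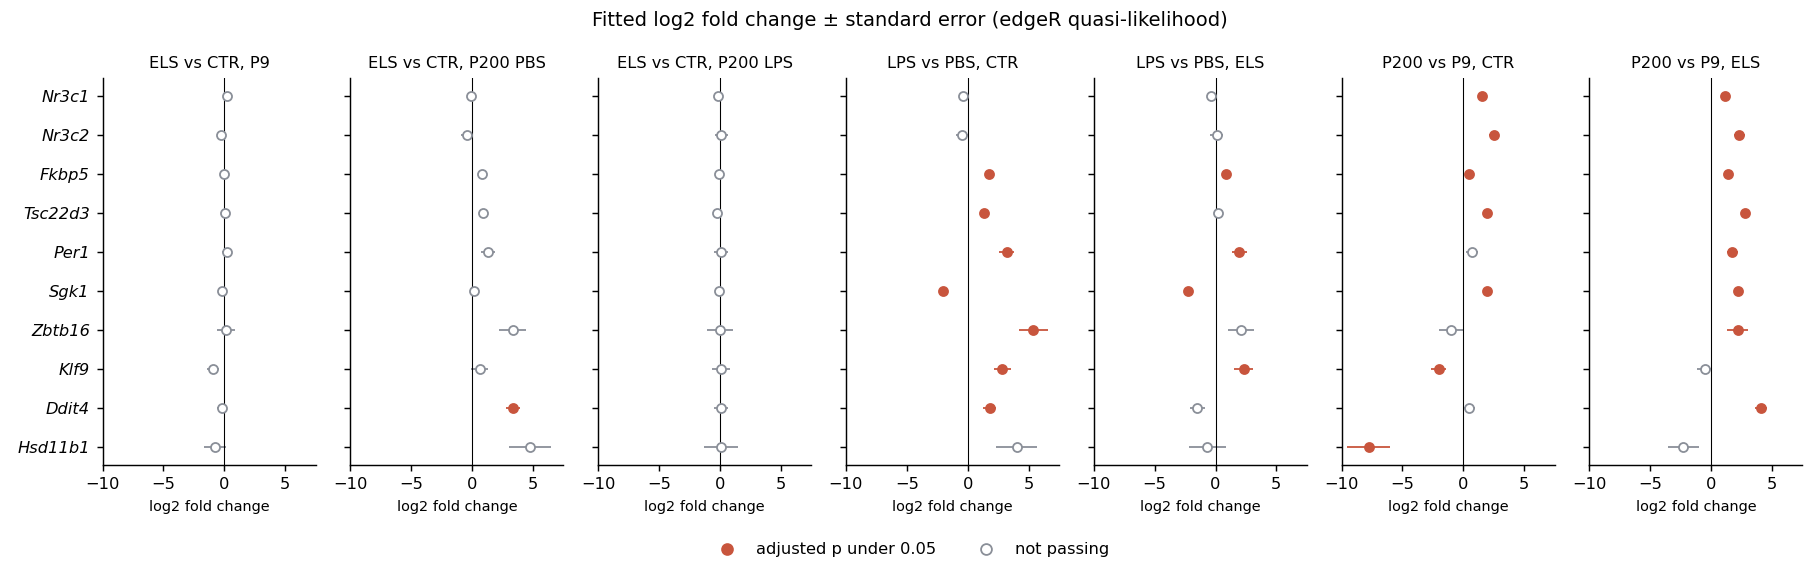
Fitted log2 fold change with its standard error for the 10 genes in 7 comparisons, with filled points for an adjusted p under 0.05. ELS against CTR has 1 filled point, Ddit4 at P200 after PBS, while LPS lowers Sgk1 by 2.05 and 2.22 and raises Fkbp5, Per1 and Klf9 in both conditions.

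In ELS adults 4 of the 10 genes passed after LPS. Fkbp5, Per1 and Klf9 rose and Sgk1 fell, 3 genes higher and 1 lower, against 7.4% and 4.94% of all genes. Fkbp5 was at 158, 166, 169, 171 and 192 CPM in the 5 P200-ELS-LPS mice, of which the lower 4 were below PBS mouse P200_4.1 (log2 fold change 0.86, standard error 0.27, adjusted p = 0.023). Per1 was at 38.8, 42.8, 58, 65.0 and 76.8 CPM, just above the 38.5 CPM of PBS mouse P200_4.1 (1.95, standard error 0.61, adjusted p = 0.027). Klf9 was at 0.443, 1.05, 2.97, 4.19 and 4.23 CPM, the lowest of them within the PBS range (2.33, standard error 0.77, adjusted p = 0.036). Each of these 3 calls was lost in 5 to 7 of the 11 fits that left out 1 mouse of these groups, with adjusted p up to 0.093. Without PBS mouse P200_20.2 Sgk1 was the 1 gene of the 10 that passed.

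Tsc22d3, Zbtb16 and Ddit4 did not pass in ELS mice. Tsc22d3 was at 238, 308, 325, 378 and 452 CPM after LPS, all below PBS mouse P200_4.1 (log2 fold change 0.24, standard error 0.27, adjusted p = 0.64), and passed without that mouse (0.76, adjusted p = 0.024). Zbtb16 was at 3.63, 4.12, 4.39, 9.44 and 17.8 CPM after LPS, above 5 of the 6 PBS mice (2.07, standard error 1.09, adjusted p = 0.23), and passed without mouse P200_4.1 (4.02, adjusted p = 0.022). Ddit4 was at 20.7, 32.8, 34.0, 35.0 and 37.6 CPM after LPS, inside the wide PBS range (-1.51, standard error 0.61, adjusted p = 0.10), and passed as lower without PBS mouse P200_17.1 (-1.76, adjusted p = 0.040) or P200_17.2 (-1.76, adjusted p = 0.046). Without PBS mouse P200_4.1 the Ddit4 difference was -0.0041 (adjusted p = 1). The P200-ELS-LPS mice of the same nests as mice P200_4.1 and P200_11.1 were P200_4.2 and P200_11.2. Ddit4 was at 37.6 CPM in P200_4.2, the highest of its group, and at 34.0 CPM in P200_11.2, in the middle. The lowest, 20.7 CPM, was P200_17.3, from the nest of PBS mice P200_17.1 and P200_17.2. For Tsc22d3 P200_4.2 (452 CPM) and P200_11.2 (378 CPM) were the highest. For Per1 (38.8 CPM) and Fkbp5 (158 CPM) P200_4.2 was the lowest. The part of the nest in these orders was not tested.

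Whether the LPS response differed between conditions was tested as an interaction, and 0 of the 10 genes passed, as did 0% of all genes with edgeR's quasi-likelihood test. Over all genes 980 had an unadjusted p under 0.05, the likelihood-ratio test called 66 and DESeq2 11. Ddit4 had an interaction of -3.32 (standard error 0.82, adjusted p = 0.21), which passed with the likelihood-ratio test (adjusted p = 0.022), and Tsc22d3 of -1.10 (standard error 0.36, adjusted p = 0.41). After LPS itself, 0 of the 10 genes passed between P200-ELS-LPS and P200-CTR-LPS, again with 0% of all genes (798 with an unadjusted p under 0.05, 10 by the likelihood-ratio test and 2 by DESeq2). All 10 log2 differences were between -0.20 and 0.10 there. The medians of Fkbp5 were 169 and 172 CPM in the 2 groups, those of Per1 58 and 56.6 CPM, and those of Sgk1 208 and 189 CPM.

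**Figure D4:**
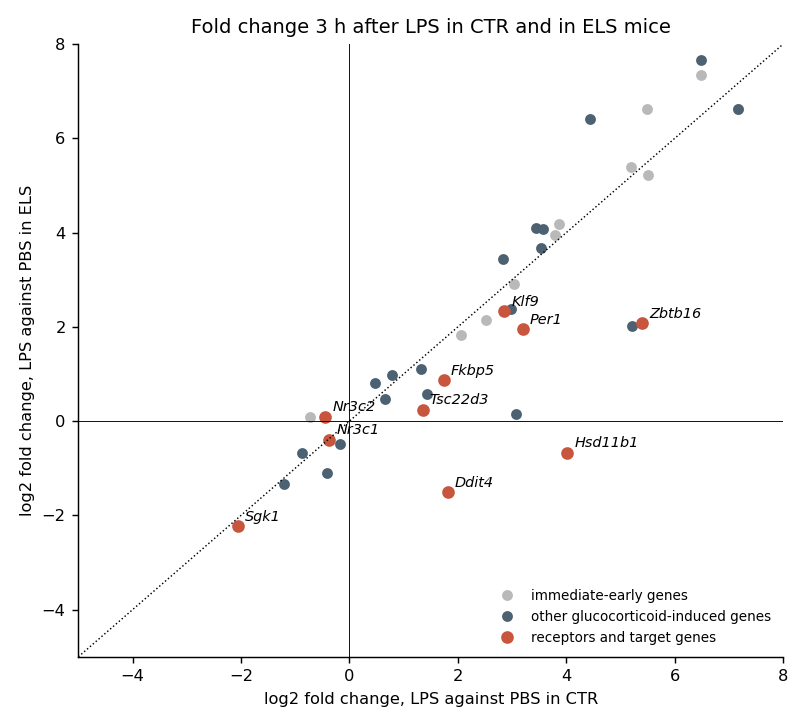
Log2 fold change of LPS against PBS in CTR mice (x axis) and in ELS mice (y axis) for the 10 genes, a second list of glucocorticoid-induced genes and immediate-early genes (1 point per gene, equality as a dotted line). Sgk1 lies close to the line at -2.05 and -2.22, and Ddit4 lies below it at 1.81 and -1.51.

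Further genes of the pathway were read from lists by role. In these lists the counts stand beside the shares over all genes given for LPS in each condition, 8.73% higher and 6.2% lower in CTR and 7.4% higher and 4.94% lower in ELS. Of 10 genes of HSP90, other chaperones and their partners, 1 was lower after LPS in CTR. It was Fkbp4, a co-chaperone that favours nuclear transport of the receptor (-0.58, standard error 0.18, adjusted p = 0.024). In ELS 2 were higher, Dnajb1 (0.61, adjusted p = 0.013) and Stub1 (0.50, adjusted p = 0.037). Of 12 receptor co-regulators, Nrip1, a corepressor, was lower after LPS in both conditions (-0.58, adjusted p = 0.021 in CTR and -0.73, adjusted p = 0.011 in ELS), 1 other passed in CTR and 2 others in ELS. Counts of at most 2 genes in 1 direction are not read as results about these lists. None of 5 tested genes of steroid conversion and export passed after LPS. Among 19 tested genes of the second glucocorticoid-induced list, 12 rose and 0 fell in CTR (median log2 fold change 2.83, against 0.0047 over all genes), and 10 rose and 0 fell in ELS (1.11, against -0.035). The smallest adjusted p belonged to Nfkbia, Cdkn1a and Zfp36 in both conditions. Nfkbia rose from 137 ± 30.1 to 1620 ± 350 CPM in CTR (SD, n = 7 in each group), and Zfp36 from 261 ± 41.5 to 3036 ± 632 CPM. Both restrain inflammatory signalling and are also induced directly by LPS. Of 11 immediate-early genes tested, 10 rose in CTR and 9 in ELS, and the LPS-responsive cytokine and acute-phase genes summed to at most 3600 CPM in the LPS mice. The part of direct LPS signalling and of hormone in these rises cannot be told apart in this design.

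Between P9 and P200 the receptors themselves changed. Nr3c1 (chr18:39543598-39652474, minus strand) lay between 45.6 and 68.6 CPM (median 58) in P9-CTR and between 134 and 201 CPM (median 157) in P200-CTR-PBS, without overlap. The rise on the log2 scale was 1.53 in CTR (standard error 0.22, adjusted p = 1.1e-07) and 1.17 in ELS (standard error 0.23, adjusted p = 3.4e-05). Nr3c2 (chr8:77625576-77971863, plus strand) rose from a median of 2.66 CPM (range 1.52 to 7.32) to 17.0 CPM (range 9.69 to 25.1) in CTR, also without overlap (2.53, standard error 0.42, adjusted p = 2.3e-06), and by 2.31 in ELS (standard error 0.43, adjusted p = 1.5e-05). In adult controls Nr3c1 remained the more abundant, at 21.3 against 2.05 CPM per kb.

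Some of the target genes also differed between P9 and P200. In CTR, 5 of the 10 genes were higher at P200 and 2 lower, where 44.1% of all genes passed in either direction (2911 higher and 4445 lower of 16696). Those higher were both receptors, Tsc22d3 (1.94, adjusted p = 6.9e-11), Sgk1 (1.92, adjusted p = 8.4e-15) and Fkbp5 (0.49, adjusted p = 0.049). Sgk1 rose from a median of 237 CPM at P9-CTR (range 176 to 273) to 876 CPM, and Tsc22d3 from 41.1 to 153 CPM, neither with overlap. The Fkbp5 call was lost in 13 of 19 fits that left out 1 mouse. In ELS, 8 of the 10 genes were higher and 0 lower, where 42.2% of all genes passed (2863 higher and 4182 lower). The 3 genes called higher in ELS and not in CTR were Ddit4 (4.07, adjusted p = 6.8e-10), Per1 (1.75, adjusted p = 0.0027) and Zbtb16 (2.17, adjusted p = 0.036, lost in 5 of the 19 fits that left out 1 mouse). Without P200-ELS-PBS mouse P200_4.1 the values for Per1 and Zbtb16 were 1.17 (adjusted p = 0.055) and 0.22 (adjusted p = 0.88), and their interactions of age and condition did not pass (adjusted p = 0.63 and 0.40).

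Klf9 and Hsd11b1 went down with age in CTR. Klf9 had medians of 1.07 CPM at P9 and 0.342 CPM at P200 with overlapping ranges (-2.03, standard error 0.65, adjusted p = 0.0092). Hsd11b1 (chr1:192903918-192946489, minus strand), whose product regenerates corticosterone from its inactive form, was detected in 11 of 12 P9-CTR mice, at up to 2.62 CPM, and in 0 of 7 P200-CTR-PBS mice (adjusted p = 0.00037). With 3 reads over the whole P200-CTR-PBS group as the limit that a count of 0 allows, it was at least 63.8-fold lower than in P9-CTR. In ELS it was detected in 7 of 13 P9 mice and 2 of 6 P200-PBS mice (-2.29, adjusted p = 0.15), and passed as lower without P200-ELS-PBS mouse P200_2.1, which held nearly all of its reads there (-5.75, adjusted p = 0.0061). Annotated genes on the opposite strand overlap Hsd11b1, and whether the counting used strand is not given in the sources used here.

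Markers of other cells changed with age too, in both directions. All 7 markers of border macrophages were lower at P200 in CTR (summed level 551 to 921 CPM in P9-CTR and 2.84 to 10.6 CPM in P200-CTR-PBS), as were all 9 neuronal markers (71.9 to 199 CPM against 4.53 to 12.7 CPM) and 7 of 8 astrocyte markers, with Slc1a3 higher. Mrc1 alone had a mean of 711 CPM in P9-CTR, and no other border macrophage marker had a mean above 5.91 CPM there. Of the other lists in CTR, 4 of 6 tested endothelial markers, 3 of 4 oligodendrocyte precursor markers and 1 of 3 mural markers were lower and Pecam1 was higher. Of 7 tested oligodendrocyte markers, Ermn, Mobp and Mag were higher, Mog was lower and 3 did not pass. Ermn and Mobp had means of 0.28 and 0.49 CPM in P200-CTR-PBS. Of 2 tested monocyte and neutrophil markers, Ccr2 was higher and Plac8 lower. Their part in the age differences of Klf9 and Hsd11b1 was not tested. The microglial markers moved the opposite way, with 7 of 10 higher and 1 lower at P200 in CTR. Of the second glucocorticoid-induced list, 7 genes were higher and 7 lower with age in CTR and 8 higher and 5 lower in ELS, and of 16 clock genes 6 and 8 were higher and 0 lower.

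Across all 50 mice, the genes whose deviations from the group means were most like those of each of the 10 genes were read as a description. For Tsc22d3 the most similar gene of all 16696 was Ddit4 (Pearson's r = 0.73). The 3 mice with few detected genes weighed on these values, and without them (47 mice, chosen after seeing the data) Ddit4 and Tsc22d3 were each other's most similar gene (r = 0.76). The next after Ddit4 for Tsc22d3 were Gm15844 (0.61) and Gm22146 (0.59), the latter a gene annotated on the opposite strand within Fkbp5. For Ddit4 the next were Snn (0.67) and Esyt1 (0.66). For Zbtb16 the third was Tsc22d3 (0.52), and for Fkbp5 the third was Nfkbia (0.58). For Hsd11b1 the first 2 were Sdc2 (0.73) and Aff3 (0.68), with and without the 3 mice. None of the 3 genes nearest to Nr3c1, Nr3c2, Per1, Sgk1 or Klf9 in the 47 mice was another of the 10.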

How the data were processed

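The authors trimmed with cutadapt 2.10, aligned to GRCm39 by STAR, counted unique exonic reads with HTSeq 0.11.0 and deposited the raw counts per gene, 1 library per mouse. The annotation release and strand setting are not given in the sources used here. Counts were scaled with the TMM method of edgeR 4.0.16 (R 4.3.3). A gene was tested if more than 2 mice had at least 1 CPM. A mean per group was fitted to all 50 mice, and edgeR's quasi-likelihood test was run on contrasts and interactions, with a threshold of 0.05 on the p adjusted after Benjamini and Hochberg. A prior count of 2 entered log2 CPM. The fit was checked on simulated data (16148 genes). It recovered 76% of 200 genes with a true log2 fold change of 2 for ELS against CTR after PBS, with 7 false calls. For LPS against PBS in CTR it recovered 78.5%, with 12 false calls. The simulated counts were independent draws from the fitted spread, without nests or outlying mice, and the changed genes averaged over 1 CPM. These shares therefore do not cover calls that rest on 1 mouse, or genes under 1 CPM.

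The 10 genes and the lists were chosen with earlier results of these data known. From each list up to 4 genes that passed were eligible to be named, by smallest adjusted p. Ddit3 had 2 rows, and the row with more reads was used. Sequences and positions were read from GRCm39 and GENCODE vM39. Intervals that a count of 0 allows cover counting error only. Alternatives were the likelihood-ratio test, DESeq2 1.42.0, its size factors, 2 other filters, subsets of mice, a nest block, limma 3.58.1 voom, sums per nest and leaving out each mouse. Permutation tests used scipy 1.17.1.

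Deviations from the group means were correlated between PBS and LPS mice. The 15 pairs of the same nest had correlations of -0.04 to 0.10 (median 0.031), and 1 pair was over 0.1. The 64 pairs of different nests had correlations of -0.09 to 0.12 (median -0.0020). With limma voom the estimated correlation within nests was 0.078. Mice of the same nest and treatment were not compared, so this check cannot show that nest had no part.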

Additional observations from a re-analysis of the deposited data

Results flagged for a closer look

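Dixon's test at the 95% level was run on the P200 CPM values of 1 gene in 1 group. Single mice stood apart in 13 of the 39 such sets that could be examined. The test assumes normally distributed values and was not repeated on log2 CPM. On that scale Ddit4 was 5.58 above the P200-CTR-PBS mean in mouse P200_4.1 and 3.59 above it in mouse P200_11.1. The sets share mice, and the flagged sets of Hsd11b1 were mostly at 0 reads, so the count cannot be set against a chance rate. In P200-ELS-PBS, mouse P200_4.1 was far above the others for Ddit4 (388 CPM), Tsc22d3 (716 CPM) and Zbtb16 (8.68 CPM), and mouse P200_2.1 for Hsd11b1 (0.818 CPM). In P200-CTR-LPS, mouse P200_5.3 was high for Fkbp5 (218 CPM), Tsc22d3 (584 CPM) and Sgk1 (414 CPM), and mouse P200_8.2 for Hsd11b1 (0.563 CPM). In P200-CTR-PBS, mouse P200_5.1 was high for Zbtb16 (0.715 CPM) and mouse P200_18.1 for Ddit4 (18.0 CPM). In P200-ELS-LPS, mouse P200_2.2 was low for Nr3c1 (85.9 CPM), mouse P200_17.3 was low for Ddit4 (20.7 CPM) and high for Hsd11b1 (0.384 CPM). The effect of ELS on Ddit4 differed between P200 after PBS and P9 by 3.60 on the log2 scale (edgeR's quasi-likelihood test, adjusted p = 0.032). That call was lost in 7 of the 38 fits that left out 1 mouse, among them the fit without P200_4.1.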

How the results depend on the processing

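The number of the 10 genes that passed stayed within 1.5 times of the reported count under all alternatives other than leaving out 1 mouse for LPS against PBS and for P200 against P9, in CTR and in ELS. For ELS against CTR after PBS it was 1, and became 2 with the likelihood-ratio test and with DESeq2 (Ddit4 and Tsc22d3), and 0 with only the groups compared and with limma voom. For the interaction of age and condition it was 1, and 0 with only the groups compared, with limma voom and without the 3 mice with few detected genes. For the interaction of LPS and condition it was 0, and 1 with the likelihood-ratio test. Leaving out 1 mouse at a time gave 0 to 2 genes for ELS against CTR after PBS, 0 to 1 for the interaction of age and condition, 6 to 7 for LPS in CTR, 1 to 5 for LPS in ELS (2 without P200_2.1, P200_11.2, P200_17.1 or P200_17.3, 1 without P200_20.2), 6 to 7 for age in CTR, 6 to 9 for age in ELS, and 0 for the other 3 comparisons. With limma voom the sign turned for Zbtb16 with age in ELS (-0.061, adjusted p = 0.97) and for Per1 with age in CTR (-0.25, adjusted p = 0.82). Where no cause is shown by the construction of the alternative, the cause was not tested. Over all genes, the 28 calls for ELS against CTR after PBS were 215 with the likelihood-ratio test, 177 with DESeq2, 6 with its size factors in edgeR, 7 with counts summed per nest and 2 to 0 under the other filters, subset of groups and limma voom. The 5 interactions of age and condition were 29 with the likelihood-ratio test, 20 with DESeq2 and 0 in 3 fits, and the 2059 calls for LPS in ELS were 3536 without the 3 mice with few detected genes. The nest as a replicate block, whose pairing of the mice was not settled, left 7 genes for LPS in CTR, 4 in ELS and 0 for the interaction, with Zbtb16 passing in ELS (5.18, adjusted p = 0.033). After PBS, Klf9 and Hsd11b1 were under 1 CPM in every adult mouse, on at most 28 and 29 reads, and Zbtb16 in all but 2 mice.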
